A study of Mus musculus with 3 samples.

Results

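The genes described are Hspb1, Hspb2, Hspb3, Hspb6, Hspb7, Hspb8 and Cryab, which encode small heat shock proteins of striated muscle, and Bag3, which encodes the cochaperone that works with the product of Hspb8. They were taken from the deposited annotation by gene name. This gave 8 protein-coding loci of the 48626 loci in the expression table, and a further locus, named after Hspb3 but transcribed from the opposite strand, was kept apart. All 8 lay among the 12569 mRNA loci that reached 1 FPKM (fragments per length of exon, scaled to the size of the library) in 1 library or more, of 20117 mRNA loci in all.

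The libraries were made from total RNA of C57BL/6 mouse heart ventricle at the embryonic stages E10.5 and E13.5 (days after conception) and at 8 weeks after birth, called the adult here, with 1 stranded library for each. The labels name no genotype other than the strain and no treatment. The study looked for long non-coding RNAs of the developing ventricle, and the small heat shock protein genes were measured along with them. Because a stage is represented by a single library, differences between stages could not be set against a spread of replicates, no p-value is given, and the order of genes with close values is that of these libraries only. Where 3 values stand together, they are those of E10.5, of E13.5 and of the adult, in this order. The labels do not say how many animals entered each library.

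Small heat shock proteins hold unfolding proteins in a soluble state without using ATP and pass them on to the HSP70 machinery. They form large assemblies of one or several family members around a shared alpha-crystallin domain. In heart muscle they are found on the Z-disc, on desmin filaments and on titin, and mutations of CRYAB, BAG3 and several of the others cause muscle or heart disease in humans.

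The 8 genes fell into 2 patterns by their values. Hspb6, Hspb8, Cryab, Bag3 and Hspb7 were higher in the adult ventricle than in both embryonic libraries, whereas Hspb1, Hspb2 and Hspb3 were lower. Of the 12569 mRNA loci that reached 1 FPKM, 35.3% rose and 64.7% fell from E10.5 to the adult, as deposited. From E13.5 to the adult, 33.0% rose and 66.9% fell. The 3 lower genes thus had the direction of most loci, and the 5 higher genes the opposite one. Among the 8 genes, the largest difference between E10.5 and the adult was that of Hspb6, which was 36.2 times as high in the adult. Hspb7 was at 1.72 times its level at E10.5. The directions of all 8 genes in both comparisons with the adult were the same under each of 3 other scalings of the libraries. In ventricle tissue, fewer cells of a type and less RNA per cell cannot be told apart, and this holds for every level given here.

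**Figure D1:**
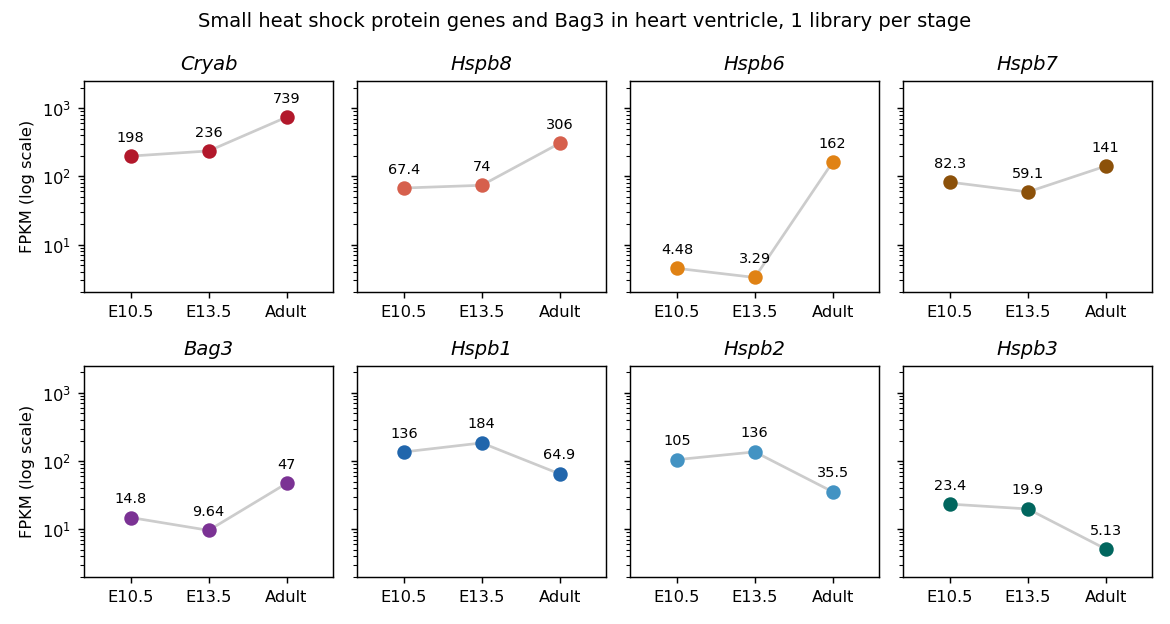
FPKM of each gene (vertical axis, log scale) in the E10.5, E13.5 and adult ventricle libraries, with 1 point per library and its value printed above it. The adult point is the highest of its panel for Cryab, Hspb8, Hspb6, Hspb7 and Bag3 and the lowest for Hspb1, Hspb2 and Hspb3.

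Cryab, alpha-B crystallin, is a major small heat shock protein of heart and lens and a chaperone of desmin. Its level was 198, 236 and 739 FPKM, the highest of the 8 genes at every stage. By rank among the 12569 expressed mRNA loci it stood at places 182, 227 and 43. The change, given throughout as the difference of log2(FPKM + 1), was 1.89 from E10.5 to the adult and 1.64 from E13.5 to the adult. The locus lies on chromosome 9 from 50752708 to 50756642 on the plus strand of mm10.

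Hspb8 encodes the partner that Bag3 binds to send damaged filamin and other proteins to autophagy. Hspb8 was at 67.4, 74.0 and 306 FPKM, changes of 2.16 and 2.03 towards the adult from the earlier and the later embryonic stage. Its locus (chromosome 5, 116408495 to 116422864, minus strand) ranked behind Cryab alone in the adult, whereas 4 of the 8 genes were above it at E10.5. Bag3 itself (chromosome 7, 128523583 to 128546979, plus strand) was at 14.8, 9.64 and 47.0 FPKM. The E13.5 library had the lowest Bag3 value, and the adult level exceeded it by 2.17 on the log2 scale and exceeded that at E10.5 by 1.60. The ratio of Hspb8 to Bag3 within a library was 4.54, 7.68 and 6.50, so Hspb8 stayed several times higher than its partner per length of transcript at all stages.

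Hspb6 encodes a small heat shock protein that protein kinase A phosphorylates in the beating heart. It was the lowest of the 8 genes in both embryonic libraries, with 4.48 FPKM at E10.5 and 3.29 at E13.5, and reached 162 FPKM in the adult. Its place among the expressed mRNA loci moved from 8881 and 9701 to 259. The change was 4.89 from E10.5 and 5.25 from E13.5, and 0.199% and 0.215% of expressed mRNA loci changed at least as far in the same direction. The embryonic values rest on about 82 and 120 fragments by the estimate from the lowest values of each library, and the adult value on about 3000. The locus (chromosome 7, 30552566 to 30555439, plus strand) joins transcripts from 2 start sites, at 30552566 in the assembled and at 30553302 in the RefSeq transcript, and the FPKM is given for the locus as a whole, so the difference cannot be assigned to either start.

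Hspb7, which encodes a small heat shock protein of heart and skeletal muscle known to bind filamin C, was at 82.3, 59.1 and 141 FPKM, changes of 0.77 and 1.25 towards the adult (chromosome 4, 141420779 to 141430325, plus strand). Of the expressed mRNA loci, 18.1% changed at least as far upwards from E10.5 to the adult.

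Hspb1, the widely expressed family member that protects actin filaments, was at 136, 184 and 64.9 FPKM. Its locus (chromosome 5, 135887892 to 135889563, plus strand) came right after Cryab in both embryonic libraries, and in the adult 4 of the 8 genes were above it. The changes to the adult were -1.06 from E10.5 and -1.49 from E13.5. Of the expressed mRNA loci, 25.3% and 18.2% changed at least as far downwards.

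Hspb2 and Hspb3 encode proteins that assemble with each other in muscle. Hspb2 (chromosome 9, 50750297 to 50752830, minus strand) was at 105, 136 and 35.5 FPKM, with changes of -1.54 and -1.91. Hspb3 (chromosome 13, 113662174 to 113663712, minus strand) was at 23.4, 19.9 and 5.13 FPKM, with changes of -1.99 and -1.77. Both were lower in the adult than in either embryonic library, and Hspb3 was then the lowest of the 8 genes, on about 55 fragments. The ratio of Hspb2 to Hspb3 was 4.49, 6.87 and 6.91.

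To set these values against the rest of the transcriptome, changes of 2 or more on the log2(FPKM + 1) scale were counted. From E13.5 to the adult, 3 of the 8 genes (Hspb6, Bag3 and Hspb8) were higher past this limit, against 4.41% of expressed mRNA loci, and none was lower past it, against 9.88%. From E10.5 to the adult, 2 of 8 (Hspb6 and Hspb8) were higher past it, against 5.59%, and none was lower past it, against 8.1%. Hspb3, at -1.99, lay just inside the lower limit and Cryab, at 1.89, just inside the upper one. The median change of the 8 genes towards the adult was 1.19 when counted from E10.5 and 1.44 when counted from E13.5, while the median of all expressed mRNA loci was -0.40 and -0.50. Median-of-ratios scaling brings the median of all expressed mRNA loci to -0.06 and -0.03. With it, the number past the upper limit was 3 from E10.5 and 4 from E13.5, Cryab being added in each. The share of expressed mRNA loci past the upper limit was then 7.86% from E10.5 and 7.12% from E13.5.

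**Figure D2:**
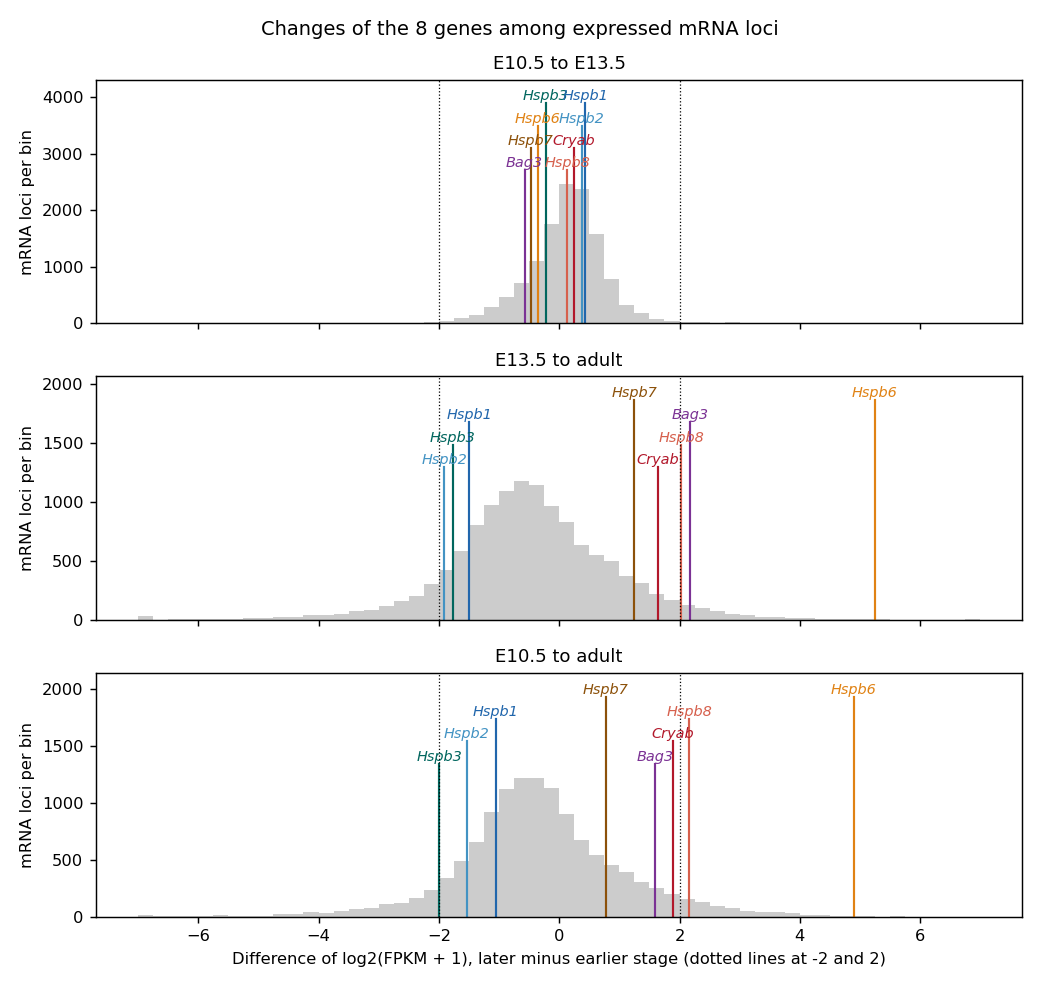
Numbers of expressed mRNA loci (grey bars, bins on the horizontal axis of the difference of log2(FPKM + 1) between 2 stages, values beyond 7 either way placed in the end bins) with the 8 genes as coloured lines. The 8 genes stood together near 0 from E10.5 to E13.5 and between E13.5 and the adult reached down to -1.91 and up to 5.25.

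Between the embryonic stages the 8 genes differed little. Their changes from E10.5 to E13.5 lay between -0.57 for Bag3 and 0.44 for Hspb1, and 4 were higher and 4 lower. Of all expressed mRNA loci, 62.9% were higher and 37.0% lower. None of the 8 genes passed 2 in either direction, against 0.851% of expressed mRNA loci upwards and 0.247% downwards. Hspb1 and Hspb2 were higher at E13.5, and Bag3, Hspb7, Hspb6 and Hspb3 were lower, under each scaling. Cryab, at 0.25, and Hspb8, at 0.13, were higher as deposited, but Cryab turned lower under 2 of 3 other scalings and Hspb8 under all 3.

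The opposite directions changed the make-up of the group. The summed level of the 8 genes was 632, 722 and 1500 FPKM, which is 0.186%, 0.167% and 0.454% of the FPKM of all mRNA loci. Hspb1, Hspb2 and Hspb3 together held 41.8%, 47.1% and 7.03% of this sum. The share of Cryab was 31.4%, 32.6% and 49.2%, that of Hspb8 10.7%, 10.2% and 20.4%, and that of Hspb6 0.709%, 0.455% and 10.8%.

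Ratios between genes of the same library do not depend on how the libraries were scaled. Cryab over Hspb1 was 1.46, 1.28 and 11.4. Hspb6 over Hspb1 was 0.0329, 0.0178 and 2.50, so that the order of the pair was reversed in the adult. By level, the order at E10.5 was Cryab, Hspb1, Hspb2, Hspb7, Hspb8, Hspb3, Bag3 and Hspb6, and Hspb7 and Hspb8 exchanged places at E13.5. In the adult it was Cryab, Hspb8, Hspb6, Hspb7, Hspb1, Bag3, Hspb2 and Hspb3.

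**Figure D3:**
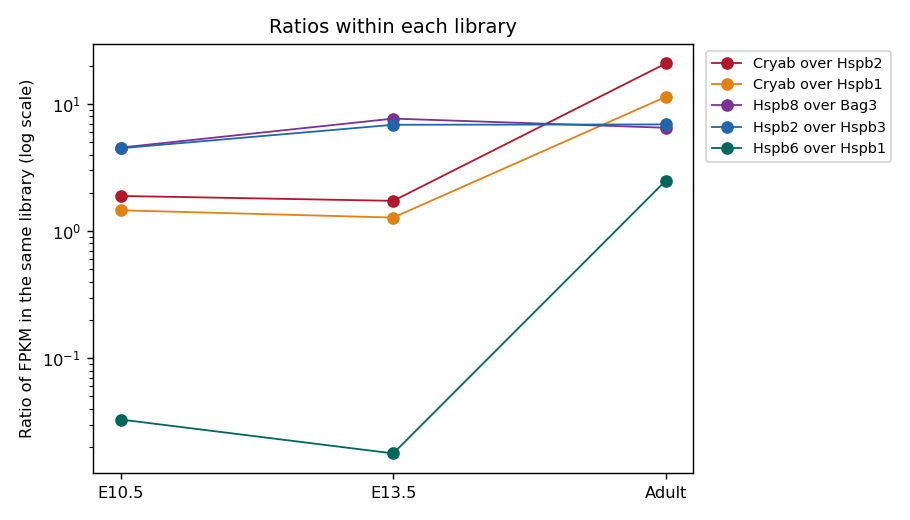
Ratio of the FPKM of 2 genes within the same library (vertical axis, log scale) at each stage, 1 library per stage. Cryab over Hspb2, Cryab over Hspb1 and Hspb6 over Hspb1 were highest in the adult, while Hspb8 over Bag3 and Hspb2 over Hspb3 stayed between 4.49 and 7.68.

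Hspb2 and Cryab are neighbours that are transcribed away from each other. In the deposited annotation their RefSeq start sites lie 404 bp apart, at 50752354 for Hspb2 and 50752758 for Cryab on chromosome 9. The assembled transcripts extend further, from 50752830 for Hspb2 and 50752708 for Cryab, so that the loci overlap by 123 bp. Towards the adult the pair had opposite directions, with Cryab higher and Hspb2 lower than in both embryonic libraries. From E10.5 to E13.5 both were higher as deposited, Hspb2 by 0.37 and Cryab by 0.25. Cryab was the higher of the pair at each stage, by 1.89, 1.73 and 20.8 times. The libraries were stranded, and 99.8% of the 25736 unspliced assembled transcripts of the annotation carry a strand. The next gene of the region within 3000 bp, 2310030G06Rik, was at 4.73, 5.44 and 5.98 FPKM.

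**Figure D4:**
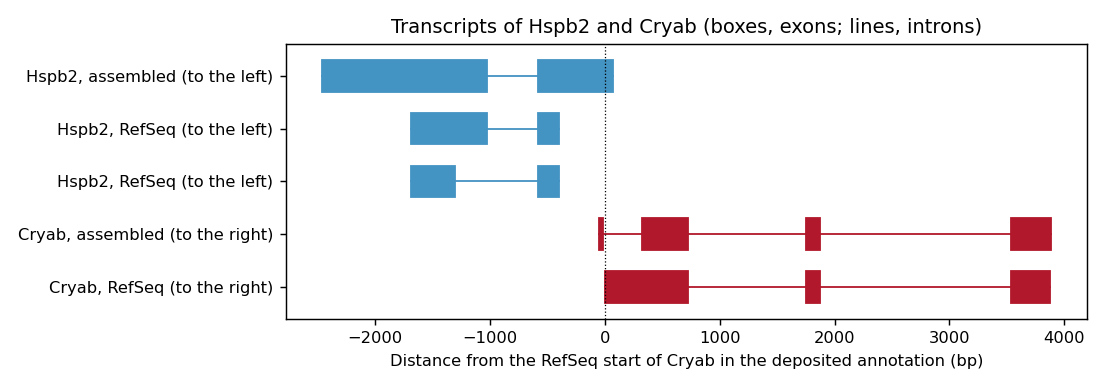
Transcripts of Hspb2 (blue, read to the left) and Cryab (red, read to the right), as distance in bp from the RefSeq start of Cryab, with exons as boxes and introns as lines. The RefSeq start sites are 404 bp apart, and the assembled transcripts overlap by 123 bp.

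Hspb6 was the other gene with a RefSeq gene close to its start. It overlaps by 112 bp with BC053749, which is transcribed away from it and was at 3.24, 2.87 and 1.36 FPKM. Its far end overlaps by 707 bp with Lin37, which was at 3.52, 3.47 and 3.07 FPKM. While Hspb6 was far higher in the adult, neither of these neighbours was.

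Heat shock factors bind inverted repeats of the unit GAA, and such repeats mark promoters of heat-inducible genes. The windows of 250 bases before and 50 after each start site in RefSeq's promoter table (GRCm38.p6, the assembly of mm10) were therefore searched. Hspb1, Hspb3, Hspb6, Hspb7, Hspb8 and Bag3 have 7 windows in this table, 2 of them for Hspb6, and Hspb2 and Cryab have none. The motif GAANNTTC, which reads the same on both strands, was found in 5 of the 6 genes and in 5 of the 7 windows, against 7.86% of all 32851 windows. By gene, 9.04% of 27025 genes hold it in at least 1 window. The inverted form TTCNNGAA was in none of the 7 windows, against 8.52% of all, and none held a further inverted unit next to either form, which 0.603% of all windows do. The form GAAGTTTC, picked out after the matches were seen, accounted for a match in Hspb1, Hspb6, Hspb8 and Bag3 and is in 1.21% of all windows on either strand. In Hspb8 and Bag3 it starts at bases 3 and 43 of the transcript, so the bases before those starts are not shown.

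The 250 bases before the start site are given for Hspb1, Hspb3 and the RefSeq start of Hspb6, the genes with a match there. Capitals mark GAANNTTC and TATAAA, the TATA box motif.
Hspb1, chr5:135887669-135887918, plus strand: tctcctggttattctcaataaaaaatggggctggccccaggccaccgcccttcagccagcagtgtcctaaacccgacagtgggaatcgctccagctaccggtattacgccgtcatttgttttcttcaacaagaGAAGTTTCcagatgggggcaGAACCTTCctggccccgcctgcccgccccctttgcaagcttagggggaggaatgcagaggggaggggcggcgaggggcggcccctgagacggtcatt
Hspb6, chr7:30553051-30553300, plus strand: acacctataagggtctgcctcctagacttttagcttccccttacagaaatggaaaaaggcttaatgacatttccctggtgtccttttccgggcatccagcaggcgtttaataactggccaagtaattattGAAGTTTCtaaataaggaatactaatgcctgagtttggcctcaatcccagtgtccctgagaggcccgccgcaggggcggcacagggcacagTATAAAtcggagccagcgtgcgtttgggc
Hspb3, chr13:113663677-113663926, minus strand: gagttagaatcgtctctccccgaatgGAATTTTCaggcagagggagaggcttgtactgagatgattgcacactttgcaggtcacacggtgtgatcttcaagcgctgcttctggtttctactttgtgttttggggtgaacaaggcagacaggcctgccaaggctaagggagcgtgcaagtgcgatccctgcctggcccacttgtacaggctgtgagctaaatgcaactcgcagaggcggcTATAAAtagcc

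Counted so that -1 is the last base before the start site, the GAANNTTC matches begin at -117 and -97 in Hspb1, at -120 in Hspb6 and at -224 in Hspb3. TATAAA begins at -29 in Hspb6 and at -11 in Hspb3, and 13.6% of all windows hold it. CCAAT, on either strand, was in the upstream window of Hspb6 alone among the 7, against 37.4% of all windows. The matches lay in genes with opposite directions, since Hspb1 and Hspb3 were lower and Hspb6, Hspb8 and Bag3 higher in the adult. A match is a run of letters, and no binding was measured here.

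A list of 65 genes, called the chaperone partners here, was examined, of which 59 were expressed. It holds chaperones and cochaperones, but also heat shock factors and genes of the autophagy route of Bag3. Cryaa, Hspb9, Hspb11 and Odf1 are in it too, so its counts are not of chaperones alone. From E10.5 to the adult, 21 of the 59 were higher and 38 lower, beside 35.3% and 64.7% of all expressed mRNA loci, with a median change of -0.51, against -0.40 over those loci. Past 2 there were 2 genes in each direction, or 3.39% each, which is below the 5.59% and 8.1% of all expressed mRNA loci. Map1lc3a, a membrane protein of the autophagosome, was at 20.2, 51.0 and 129 FPKM, a change of 2.62, and Dnajb2, an HSP40 cochaperone, was at 9.61, 17.7 and 45.4 FPKM, a change of 2.13. Hspa2, an HSP70 known from the testis, and Hsp90aa1, the inducible HSP90, changed by -2.11 and -2.06. From E13.5 to the adult, Dnajb9 was higher past 2, at 2.02, and Hspb11, Hsp90aa1 and Hspa14 were lower, at -2.17, -2.07 and -2.04, that is 1.69% and 5.08% of the list beside 4.41% and 9.88% of expressed mRNA loci. From E10.5 to E13.5, none of the 59 passed 2. With median-of-ratios scaling, no gene of the list was lower past 2 in either comparison with the adult. The share of expressed mRNA loci lower past 2 was then 6.09% from E10.5 and 6.11% from E13.5.

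**Figure D5:**
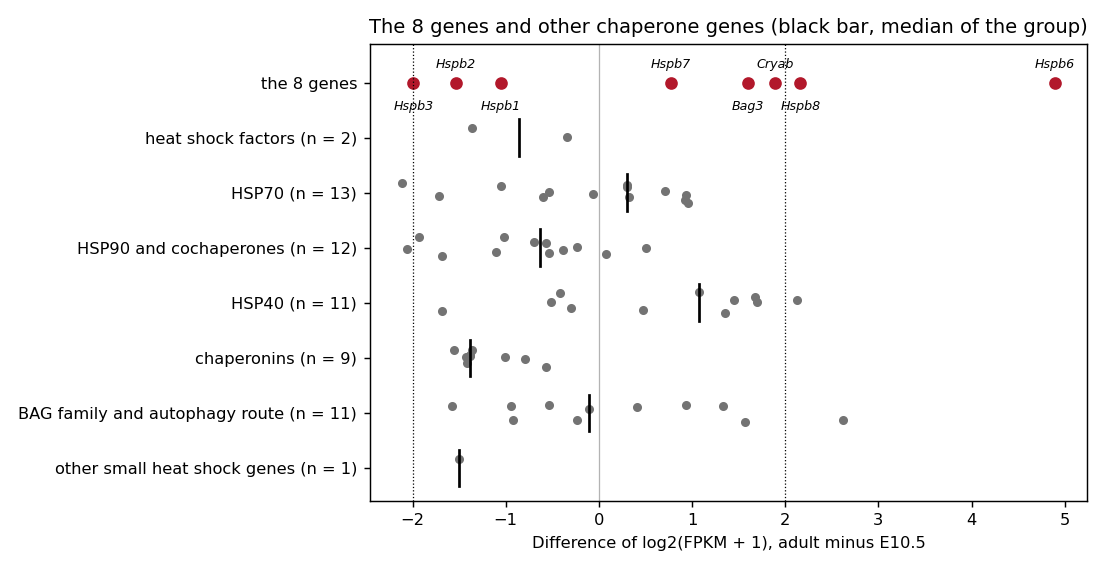
Difference of log2(FPKM + 1) between the adult and E10.5 (horizontal axis) for the 8 genes (red, top row) and for the expressed genes of each group of the chaperone partner list (grey points, with a black bar at the group's median). All 9 chaperonins lay below 0, while 7 of 11 HSP40 genes lay above it.

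By family, all 9 chaperonin genes, which encode the mitochondrial HSP60 complex and the cytosolic folding ring, were lower in the adult than in both embryonic libraries under each scaling. Their median level was 168, 201 and 67.6 FPKM, and Hspd1, the HSP60 gene, was at 118, 138 and 67.6 FPKM. Of 12 genes of HSP90 and its cochaperones, 10 had a lower value in the adult library than in that of E10.5, where 64.7% of expressed mRNA loci had one, and 8 with median-of-ratios scaling. Of 11 HSP40 genes, 7 were higher in the adult than at E10.5, beside 35.3% of expressed mRNA loci, with a median change of 1.08, and 8 were with median-of-ratios scaling. An exception was Dnajb1, a heat-inducible HSP40, which was at 22.8, 24.1 and 6.38 FPKM. Of 13 HSP70 genes, 7 were higher and 6 lower, or 8 and 5 with median-of-ratios scaling. The shares of all loci given here are those as deposited. Median-of-ratios scaling moves the median change of all expressed mRNA loci from -0.40 to -0.06, so these shares do not apply to counts under it.

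The stress-inducible HSP70 genes were barely detected at any stage. Hspa1a was at 0.486, 0.588 and 0.277 FPKM, and Hspa1b at 0.518, 0.498 and 0.165. The pair are near-identical copies, so their values are uncertain one by one. Hspa8, the constitutive HSP70, was at 106, 341 and 204 FPKM. Hsf1, the main heat shock factor, was at 10.1, 11.5 and 7.74 FPKM, and its direction from either embryonic stage to the adult turned with median-of-ratios scaling.

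The route from Bag3 and Hspb8 to autophagy runs through Stub1, a ubiquitin ligase, and Synpo2, a Z-disc protein that links Bag3 to the membrane fusion machinery. Stub1 was at 67.8, 111 and 35.2 FPKM, and was lower in the adult under each scaling. Synpo2 was at 13.8, 8.76 and 27.2 FPKM, with its lowest value at E13.5 like Bag3. Bag1, the family member linked to the proteasome, was at 59.8, 90.5 and 80.1 FPKM. The ratio of Bag3 to Bag1 was 0.248, 0.107 and 0.587, with Bag1 the higher of the pair at each stage.

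Of the proteins on which small heat shock proteins are known to act, 11 genes were examined, of which 10 were above 0 in all libraries. From E10.5 to the adult, 4 of the 10 were higher and 6 lower, beside 64.7% of expressed mRNA loci lower. Past 2 there was 1 in each direction, beside 5.59% and 8.1% of expressed mRNA loci. Des, the desmin gene, was at 385, 359 and 855 FPKM, changes of 1.15 and 1.25 to the adult, both below those of Cryab. Flnc, the filamin that Bag3 helps to turn over, was at 64.8, 32.0 and 34.9 FPKM. Vim, the vimentin of non-muscle and immature cells, was at 595, 965 and 101 FPKM, a change of -2.55 from E10.5. Pln, whose product restrains the calcium pump of cardiomyocytes, was at 505, 745 and 4551 FPKM, a change of 3.17. Ttn was at 428 and 46.8 FPKM in the embryonic libraries and is listed at 0 in the adult, so no fold is given for it. Whether the Ttn locus was quantified properly was not tested, and the listed 0 is not read as absence of its transcript.

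The genes nearest in pattern were sought among 7357 other mRNA loci of 1 gene with a highest value of at least 10 FPKM. The distance was the root mean square, over the 3 stages, between profiles of log2(FPKM + 1) centred on their mean. Nearest to the mean profile of the 8 genes were Ghitm, Actn2, Pvr, Ccdc47 and Slc35e1, at distances of 0.021 to 0.023. That mean joins 5 genes higher and 3 lower in the adult, with changes from E10.5 between -1.99 and 4.89. It therefore describes neither set, and the 5 loci nearest to it need not resemble any single gene of the 8. For single genes the nearest were Klhl22 for Hspb1, S1pr2 for Hspb2, Mvd for Hspb3, Mb for Hspb6, Golgb1 for Hspb7, Mtm1 for Hspb8, Retsat for Cryab and Sgcb for Bag3. Mb, the myoglobin gene, was at 278, 228 and 8914 FPKM. Among the 8 genes, the closest pairs were Hspb8 and Cryab, at 0.16, Hspb1 and Hspb2, at 0.21, and Hspb2 and Hspb3, at 0.26, and the farthest was that of Hspb3 and Hspb6, at 3.28. The profiles rest on 3 libraries.

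Marker genes were read beside these differences. The 7 ventricular cardiomyocyte markers were all detected and summed to 14824, 21639 and 25569 FPKM. The 8 genes came to 4.26%, 3.34% and 5.87% of that sum. The 7 markers did not move together: 5 were higher and 2 lower from E10.5 to E13.5, beside 62.9% and 37.0% of expressed mRNA loci. From E13.5 to the adult, 4 were higher, among them Pln at 745 and 4551 FPKM, and 3 lower, beside 33.0% and 66.9%. Of these 3, Actc1 changed by -0.47, while Myl2 and Myl3 hardly changed, at -0.079 and -0.015. With median-of-ratios scaling, all 7 were higher in the adult than at E13.5. The 4 genes listed as atrial markers, Myl7, Myl4, Sln and Nppa, summed to 6382, 6766 and 40.9 FPKM. The 7 fast skeletal muscle markers summed to 53.8, 64.5 and 3.61. The 5 smooth muscle markers summed to 1325, 1234 and 209 FPKM, but only 3 of them fell below their E10.5 value in the adult library, and Myh11 was higher, at 0.112, 0.893 and 18.1 FPKM. The 5 fibroblast markers summed to 128, 419 and 430 FPKM, of which Dcn made up 351 in the adult, and the other 4 were lower there than at E13.5. The 5 macrophage markers summed to 5.29, 30.3 and 114 FPKM, the 5 endothelial markers to 222, 150 and 226, and the 3 primitive erythroid markers to 6727, 16305 and 3.05. The 12 immediate early genes, read as a sign of tissue handling, summed to 109, 113 and 96.8 FPKM. This sum joins genes that moved opposite ways, such as Fos, at 16.6, 3.70 and 3.58 FPKM, and Ier3, at 8.75, 20.4 and 25.6. Of the 11 expressed ones, 4 rose and 7 fell from E10.5 to the adult, beside 35.3% and 64.7% of expressed mRNA loci. By 1 or more, 1 rose and 5 fell. Whether handling differed between the libraries was not tested. No marker of these lists was at 0 in any library except 1 fast skeletal muscle gene at E13.5. Whether the listed genes are confined to the named cell types in embryonic ventricle was not examined. The sums, such as those of the atrial and smooth muscle lists, therefore do not measure amounts of tissue. The part of these cell types in the differences of the 8 genes was not tested.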

How the data were processed

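The authors made stranded total RNA libraries of ventricle, mapped the paired-end reads to mm10 and assembled transcripts (TopHat, Bowtie and Cufflinks per the labels, the methods naming TopHat2 and an assembly run both with a UCSC annotation and without one; release numbers and further options are not given in the sources used here). The deposited table gives FPKM per merged locus for the 3 libraries, and the deposited annotation relates transcripts to RefSeq. Values of 1 locus cover all its transcripts.

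Loci were joined to gene names through the annotation, and a locus with a matching RefSeq coding transcript was an mRNA locus. Changes were differences of log2(FPKM + 1), which understate the change of low loci, counted at 2 or more. With 1 library per stage no test was made. Genes named beside the 8 were those past 2 in the lists and 12 reference genes chosen by role, the nearest in pattern by the stated distance, and neighbours with a start within 3000 bp. The genes and lists were chosen with earlier results of these data known.

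The number of fragments behind a value was estimated by taking the smallest step of FPKM times length as 1 fragment. By this, 1 FPKM over 1 kb stands for about 13.8, 26.7 and 13.8 fragments (E10.5, E13.5, adult), and low values are imprecise. All 15 introns of the 8 loci are introns of GENCODE M21 on GRCm38. Protein sequences were not analysed here. The alternatives were a pseudocount of 0.1, 3 other scalings, a limit of 1, no filter on low values and loci of 1 gene name. The counting was tested on simulated data. Python 3.11.15, numpy 2.4.6, pandas 2.3.3 and matplotlib 3.10.9 were used.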

Additional observations from a re-analysis of the deposited data

How the results depend on the processing

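No paired analysis was possible because there is 1 library for a stage. Of 279 values recomputed, 238 stayed near the first value and 41 moved, and no past-limit change of a small heat shock gene or Bag3 changed direction. The sign turned in 8 of the 279, all of them counted among the 238. Besides Hspb8 and Cryab between the embryonic stages, the median of the chaperone partners turned. It went from -0.56 to 0.0032 (E13.5 to adult, median-of-ratios) and from 0.24 to -0.07 and -0.11 (E10.5 to E13.5, the sums over mRNA loci without and with globin and mitochondrial loci). With a pseudocount of 0.1, Hspb3 passed the limit, so that 1 of the 8 genes was lower past 2 at 8 weeks than at E10.5. The shares of mRNA loci past 2 were then 2.63% higher and 1.02% lower from E10.5 to E13.5, 7.77% and 16.2% from E13.5 to the adult, and 9.75% and 13.49% from E10.5 to the adult. Under median-of-ratios factors, 0.382% were lower from E10.5 to E13.5. From E13.5 to the adult, 7.12% were higher past 2 and 6.11% lower past 2, with 3 chaperone partners past 2 upwards and 0 downwards. From E10.5 to the adult, 4 partners passed upwards and 0 downwards, beside 7.86% and 6.09% of mRNA loci. With equal sums over mRNA loci, 0.668% were lower from E10.5 to E13.5. From E13.5 to the adult, 2 partners then passed upwards and 0 downwards, beside 5.96% and 6.90% of mRNA loci. Without globin and mitochondrial loci in that sum, 0.636% were lower from E10.5 to E13.5. From E13.5 to the adult, 0 partners were then lower past 2, beside 7.21% of mRNA loci. At a limit of 1, the 8 genes gave 5 upwards and 3 downwards (E13.5 to adult) and 4 upwards and 3 downwards (E10.5 to adult), against mRNA shares of 13.02% and 32.1%, and 14.8% and 27.3%. The embryonic shares were 5.89% and 4.85%, and partners numbered 2 higher and 3 lower, 6 and 21, and 9 and 19 in the order E10.5 to E13.5, E13.5 to adult and E10.5 to adult. Without a filter on low values, mRNA shares past 2 were 0.532% and 0.154%, 2.75% and 6.17%, and 3.49% and 5.06% in that order. Depth limits Hspb3 in the adult and Hspb6 in the embryonic libraries most, and animal-to-animal variation cannot be read at all.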

Other observations

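Hspb3 and Bag3 each have a weak transcript on the opposite strand with its highest value in the adult library. An unspliced locus of 1705 nt on the plus strand of chromosome 13 (113661356 to 113663060), named after Hspb3 in the annotation, overlaps the RefSeq transcript of Hspb3 by 165 nt. Its values, in the order E10.5, E13.5 and adult, were 0.0698, 0.0552 and 0.964 FPKM, on about 1.6, 2.5 and 23 fragments. An unnamed, unspliced locus of 680 nt on chromosome 7 (128522623 to 128523302, minus strand) starts 281 bp upstream of Bag3 and is transcribed away from it. It was at 0.132, 0.0734 and 1.30 FPKM, with embryonic values that rest on too few fragments to be put in order. Bag3 was at 14.8, 9.64 and 47.0. Hspb3, in contrast, was lower in the adult than in both embryonic libraries.

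Other genes with small heat shock names were low or outside the family. Cryaa, the crystallin of the lens, is listed at 0 in all 3 libraries. Hspb9 was at 0.196 FPKM at E10.5 and listed at 0 in the others. Hspb11, which encodes a subunit of intraflagellar transport, was at 21.7, 34.9 and 6.98 FPKM.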
